A study of Mus musculus with 24 samples.

Results

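The heat shock chaperones described here are 10 genes, chosen by name: Hspa1a, Hspa1b, Hspa8, Hspa5, Hsp90aa1, Hsp90ab1, Hspe1, Hspd1, Hsph1 and Dnajb1. Each matched 1 of the 47729 gene rows, and all 10 passed the filter on low counts. Their transcripts were measured by RNA sequencing in microglia, the resident macrophages of the retina, sorted as CD11b+ and Fcrls+ cells without Ly6c, with 1 library per retina. DBA/2J is an inbred mouse strain with an age-related pigmentary glaucoma, and its genotype is given as Gpnmb-/- Tyrp1b-/-. The control strain, DBA/2J Gpnmb+, carries Gpnmb on the same background, and no group received a treatment. The 12-month groups held 5 DBA/2J animals with 10 retinas and 5 Gpnmb+ animals with 9 retinas, and the 6-month group, labelled as early disease, 5 DBA/2J animals with 1 retina each. By the labels' grading of the 12-month DBA/2J eyes, 3 were mild (from 2 animals), 4 moderate (from 3) and 3 severe (from 2), and animals 1 and 5 had eyes of different grades. Age and strain both differ between the 6-month DBA/2J and Gpnmb+ groups.

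Chaperones bind unfolded or newly made proteins and help them fold, assemble or be degraded. Heat shock factor 1, encoded by Hsf1, turns on many of their genes when unfolded proteins accumulate in the cytosol, by binding inverted repeats of GAA known as heat shock elements. A separate pathway, the unfolded protein response, raises the chaperones of the endoplasmic reticulum. Chaperone and immediate early transcripts of microglia are also known to increase during warm dissociation of tissue.

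The label of the sorted cells was checked against marker genes. All 12 microglia markers had counts in each group, and their summed level was 14129 to 39737 CPM per retina (CPM is a gene's count scaled by its library's total). Fcrls, whose protein was used in the sort, had counts in 8 of 10 retinas of 12-month DBA/2J, 5 of 9 of Gpnmb+ (median 2.40 CPM) and 5 of 5 at 6 months. The 12 rod photoreceptor markers, all of which had counts in each group, summed to 219 to 19852 CPM. No count of the 12 markers of lymphocytes, neutrophils and red cells was seen in 12-month DBA/2J, and their sum reached at most 5.05 CPM elsewhere. Markers of monocytes and border macrophages reached 388 CPM in 12-month DBA/2J, 162 CPM in Gpnmb+ and 122 CPM in 6-month DBA/2J. Library totals ran from 977886 to 14845311 counts in Gpnmb+, from 1706775 to 20081114 in 12-month DBA/2J and from 12043911 to 17993059 at 6 months. Fewer than 10000 genes had a count in 5 of the 9 Gpnmb+ retinas (both eyes of animals 1 and 2 and the right eye of animal 3) and in no other retina. In those 5 retinas the microglia markers summed to 14129 to 22860 CPM, against 32369 to 35994 CPM in the other 4. Gpnmb was at 0 in all retinas except 1 Gpnmb+ retina, at 30.9 CPM, so it does not check the strain labels in these cells. Because these are bulk samples, fewer cells of a type and less RNA per cell cannot be told apart.

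Sequence before the transcription start is shown for the members whose windows hold the elements these pathways act through, since it also shows how alike the pair Hspa1a and Hspa1b are. Windows of 250 bases before the start were found for 7 members, as 10 windows, in RefSeq on GRCm38.p6. None was found for Hspa8, Hsp90aa1 or Hsp90ab1, so their promoters were not searched. Hspa1a (chr17:34972157-34972306, minus strand) and Hspa1b (chr17:34959239-34959388, minus strand) encode nearly the same inducible HSP70 protein. Of the 150 bases printed before each start, 149 are identical, as are 247 of all 250. Capitals mark GAANNTTC, 104 bases before the start in both, which is the pair of repeats that a heat shock element is built from.
Hspa1a: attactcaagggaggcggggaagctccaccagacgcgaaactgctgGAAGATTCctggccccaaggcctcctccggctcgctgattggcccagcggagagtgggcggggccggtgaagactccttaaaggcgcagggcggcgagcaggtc
Hspa1b: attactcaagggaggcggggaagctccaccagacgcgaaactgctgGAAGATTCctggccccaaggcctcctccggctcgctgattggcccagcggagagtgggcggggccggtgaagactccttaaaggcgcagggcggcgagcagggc

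Shorter stretches of 30 bases are shown for Hspe1 and Hsph1, which hold the repeats in the other phase, and for Hspa5. Hspd1 encodes the mitochondrial chaperonin and Hspe1 (chr1:55088053-55088082, plus strand) its lid. They lie head to head, with the RefSeq starts of Hspd1 95 and 216 bases from that of Hspe1. In Hspe1 capitals mark 4 repeats in a row, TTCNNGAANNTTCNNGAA, which 1 window of Hspd1 also holds. Hsph1 (chr5:149636351-149636380, minus strand) has TTCNNGAA in capitals. In Hspa5 (chr2:34772020-34772049, plus strand) capitals mark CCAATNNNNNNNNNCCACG, the endoplasmic reticulum stress response element.
Hspe1: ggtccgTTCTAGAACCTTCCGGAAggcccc
Hsph1: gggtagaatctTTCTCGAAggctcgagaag
Hspa5: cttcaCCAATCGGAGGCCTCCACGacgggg

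Searched on both strands, GAANNTTC or TTCNNGAA was in 6 of the 10 member windows, those of Hspa1a, Hspa1b, Hspd1, Hspe1 and Hsph1, and in 12.8% of all 32851 windows of the same length. These 6 windows do not hold separate elements. The run in Hspd1 is that of Hspe1 read from the other strand, and the Hsph1 windows share the same match. The windows of Hspa1a and Hspa1b are near copies. The run of 4 repeats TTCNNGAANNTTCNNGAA, which contains both shorter motifs, was in 0.0122% of all windows. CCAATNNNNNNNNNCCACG was in 0.113% of them and, among the members, in that of Hspa5. The window of Dnajb1 held none of these motifs. A match describes letters in a window and does not show binding.

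The genes are spread over 7 chromosomes of GRCm38. Hspd1 (chr1:55077835-55088243, minus strand) and Hspe1 (chr1:55088132-55091307, plus strand) overlap at their starts. Hspa1b (chr17:34956436-34959238) and Hspa1a (chr17:34969190-34972156) are neighbours on the minus strand, with Hsp90ab1 further along (chr17:45567775-45573271, minus strand). The others are Hspa5 (chr2:34771970-34777547, plus strand), Hsph1 (chr5:149614287-149636376, minus strand), Dnajb1 (chr8:83608193-83612653, plus strand), Hspa8 (chr9:40800984-40810087, plus strand) and Hsp90aa1 (chr12:110690605-110702728, minus strand).

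Compared per transcript length, as deposited TPM (transcript abundance scaled for length and library total), the constitutive HSP70 and HSP90 genes Hspa8, Hsp90ab1 and Hspa5 had the highest medians. Hspa8, the constitutive cytosolic HSP70, had the highest median over the 24 retinas, at 858 TPM (272 to 1471), and was above Hsp90ab1 in 20 of 24 retinas. Hsp90ab1, the constitutive cytosolic HSP90, had a median of 570 TPM (303 to 1212). It was not separated from Hspa5, the HSP70 of the endoplasmic reticulum known as BiP, at 539 TPM (157 to 829), since it was the higher of the pair in 12 of 24 retinas. Hsp90aa1, the stress-inducible HSP90, followed at 289 TPM (67.3 to 1078). Next came Dnajb1, the J-domain partner that hands clients to HSP70, at 62.0 TPM, Hspe1 at 61.7 TPM, Hspa1a at 54.9 TPM and Hspd1 at 44 TPM. Neighbours in this order did not differ beyond their spread, as each was above the next in only 9 to 12 of 24 retinas. Dnajb1 and Hspe1 were each above Hspd1 in 18 of 24 retinas. Hspa1b had a median of 15.4 TPM. Hsph1, the HSP110 that exchanges the nucleotide of HSP70, was lowest at 4.18 TPM and at 0 in 5 retinas. Summed, the 10 genes made up 1647 to 4094 TPM per retina.

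**Figure D1:**
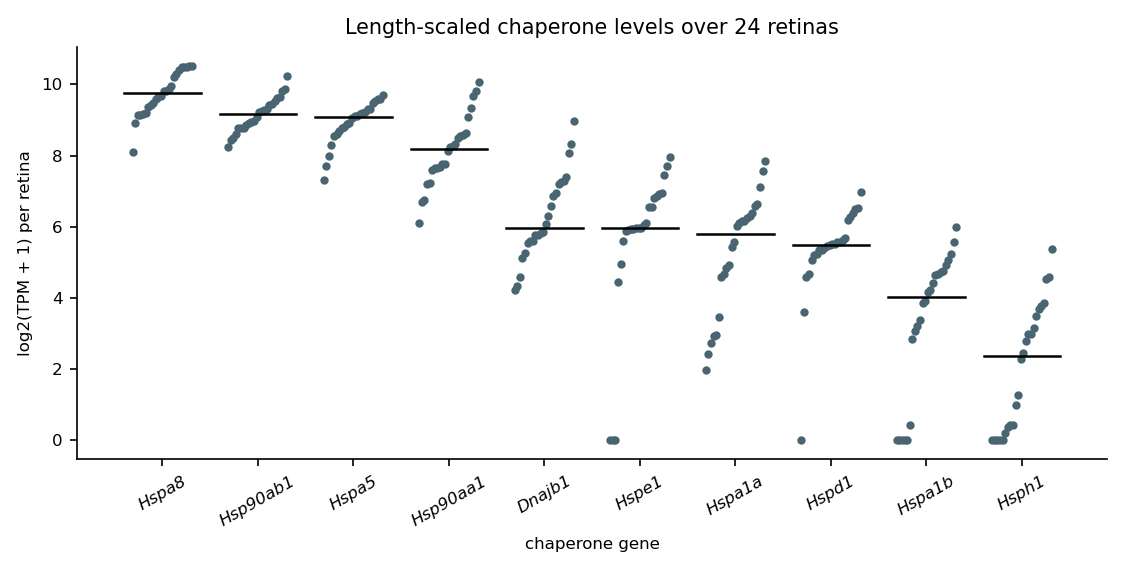
Deposited TPM of each chaperone on a log2(TPM + 1) scale, with 1 point per retina (24 retinas, sorted by value within a gene) and a line at the median. Hspa8, Hsp90ab1 and Hspa5 form the upper end, with medians of 858, 570 and 539 TPM, and Hsph1 is lowest at 4.18 TPM.

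No chaperone passed an adjusted p of 0.05 in any of the 3 comparisons of groups, which shared 1 edgeR quasi-likelihood fit of 15 animals. Over all 12977 genes tested the number that passed was also 0 (0%). Between 12-month DBA/2J and Gpnmb+, 1 of the 10 chaperones, Dnajb1, was on the lower side of an unadjusted p of 0.05 and 0 on the higher side, where 2.45% of all genes were lower and 2.76% were higher. With DESeq2 on the same counts, 2 chaperones were lower at an unadjusted p under 0.05, beside 577 of 12977 genes, and none passed the adjusted threshold. Between 12-month and 6-month DBA/2J, 1 chaperone was higher, Hsp90ab1, and 0 were lower, beside 2.1% and 1.55% of all genes. Between 6-month DBA/2J and Gpnmb+, 2 chaperones were lower, Hsp90aa1 and Dnajb1, and 0 were higher, beside 1.57% and 2.2% of all genes. DESeq2 gave 0 chaperones between the ages, beside 286 of 12977 genes lower and 381 higher. It gave 3 lower in this last comparison, beside 416 of 12977 genes, none of the 3 past the adjusted threshold.

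The median log2 fold change of the 10 chaperones was -0.15 for 12-month DBA/2J against Gpnmb+, where that of all genes tested was 0.05. It was 0.36 for 12-month against 6-month DBA/2J (all genes 0.01) and -0.47 for 6-month DBA/2J against Gpnmb+ (all genes 0.03). The 3 comparisons share samples in pairs, so their values are not independent of each other. For no chaperone were all animals of one group above or below all animals of the other. Among all genes tested, 0.285% were separated and lower and 0.832% separated and higher in 12-month DBA/2J than in Gpnmb+. The shares were 1.02% and 1.43% between the ages of DBA/2J, and 0.239% and 0.878% between the 6-month animals and Gpnmb+.

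**Figure D2:**
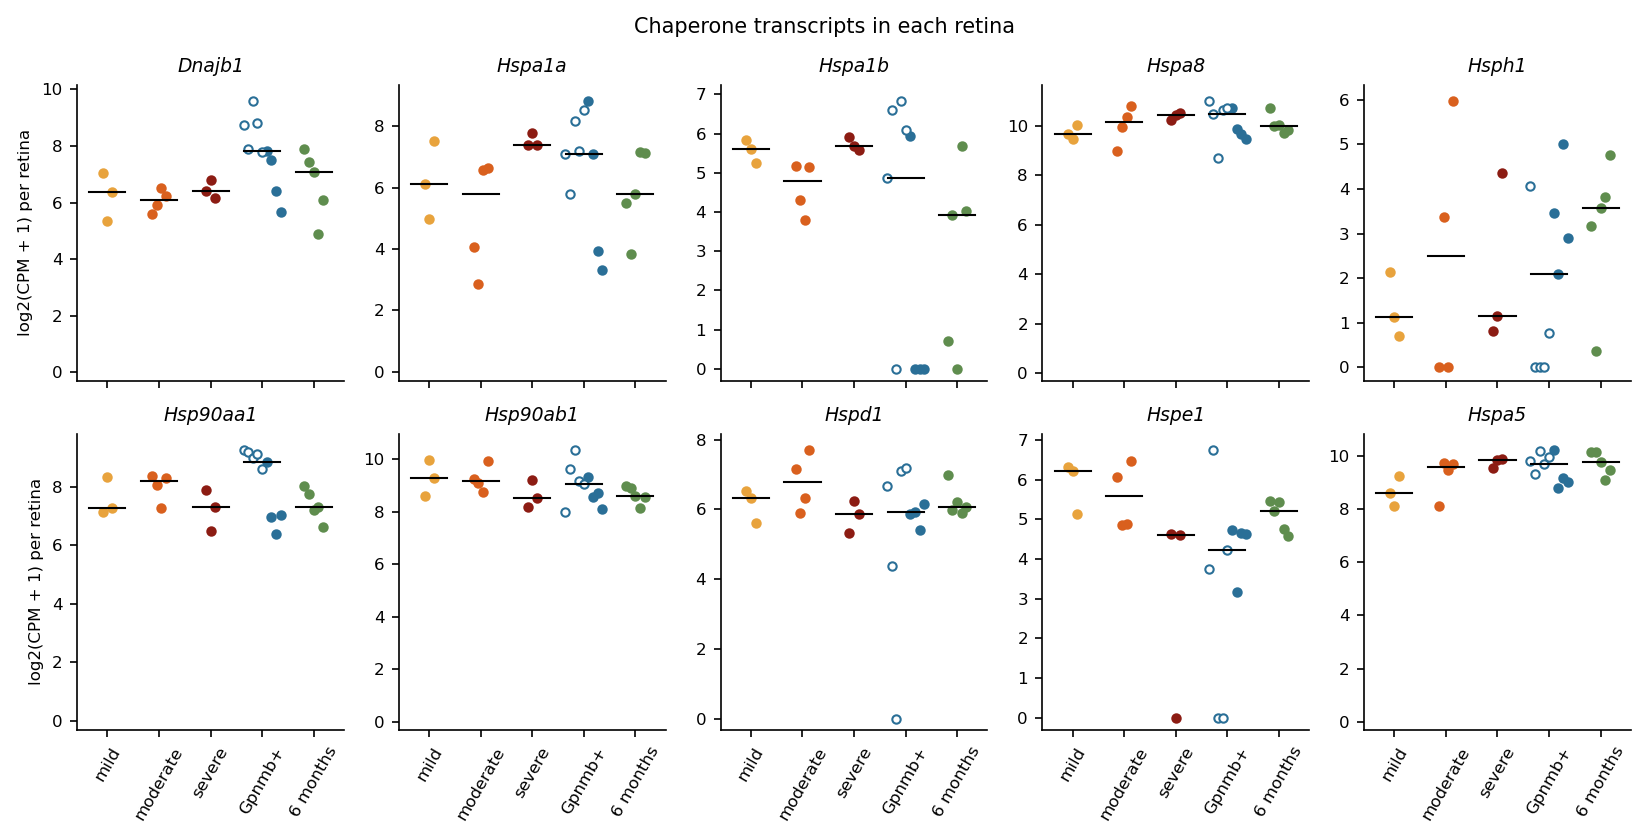
CPM of each chaperone on a log2(CPM + 1) scale, with 1 point per retina, grouped as mild, moderate and severe 12-month DBA/2J, 12-month Gpnmb+ and 6-month DBA/2J. Lines are medians and open points are the 5 Gpnmb+ retinas with fewer than 10000 genes detected, which hold 4 of the 5 highest Dnajb1 values.

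Dnajb1 showed the widest gap between the 12-month groups among the chaperones relative to its error. It encodes HSP40, which stimulates the ATPase of HSP70 and is itself a heat shock gene. Per animal, as TMM-scaled CPM, it stood at 76.3, 77.7, 85.7, 120.5 and 72.8 in the 12-month DBA/2J animals 1 to 5. In Gpnmb+ animals 1 to 5 it stood at 436, 489, 228, 175 and 63.5 CPM. The 12-month DBA/2J animals lay close together, while Gpnmb+ spanned a wide range, with animal 5 below every 12-month DBA/2J animal and the other 4 above all of them. In 6-month DBA/2J the values were 216, 162, 128, 28.8 and 60.6 CPM, which overlapped both other groups. The group means were 86.6 ± 19.5 (SD, n = 5) in 12-month DBA/2J, 278 ± 179 (SD, n = 5) in Gpnmb+ and 119 ± 75.5 CPM (SD, n = 5) in 6-month DBA/2J. For 12-month DBA/2J against Gpnmb+ the log2 fold change of Dnajb1 was -1.68 ± 0.52 (SE), with p = 0.0045 and an adjusted p of 0.574 by edgeR. For 6-month DBA/2J against Gpnmb+ it was -1.23 ± 0.51 (p = 0.028, adjusted p = 1.00 by edgeR), and for 12-month against 6-month DBA/2J -0.46 ± 0.51.

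The Dnajb1 level was next set beside the number of genes detected. In the 5 Gpnmb+ retinas with fewer than 10000 genes it was 221 to 774 CPM per retina, with a median of 428. In the other 4 Gpnmb+ retinas it was 50.4 to 226 CPM, against 39.8 to 132 in 12-month DBA/2J and, at 6 months, 29.0 to 237. The low-gene retinas are both eyes of Gpnmb+ animals 1 and 2 and the right eye of animal 3, so the contrast is largely one between animals. Animal 3, the only one with an eye on each side of the 10000-gene line, had similar Dnajb1 in both, at 221 CPM in the right eye and 226 in the left. Without those 5 Gpnmb+ retinas, which leaves 3 Gpnmb+ animals, the log2 fold change was -0.82 ± 0.51 (p = 0.126, adjusted p = 0.775 by edgeR) for 12-month DBA/2J against Gpnmb+. The value for 6-month DBA/2J against Gpnmb+ also lost the unadjusted threshold without Gpnmb+ animal 1 (p = 0.0784 by edgeR), Gpnmb+ animal 2 (-0.92), 6-month animal 4 (-0.96) or 6-month animal 5 (-1.04). Without the 5 retinas it was -0.37 ± 0.51 for 6-month DBA/2J against Gpnmb+ (p = 0.485, adjusted p = 1.00 by edgeR). Over 22 alternative settings the adjusted p of Dnajb1 for 12-month DBA/2J against Gpnmb+ was 0.0666 to 1.00. In the 5 retinas the rod markers summed to 248 to 19852 CPM, against 346 to 823 CPM in the other 4, and 21 immediate early genes to 16150 to 37034 CPM, against 14626 to 23177 CPM. In 12-month DBA/2J the immediate early genes summed to 4662 to 15313 CPM. The part of these differences in the Dnajb1 result was not tested.

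**Figure D3:**
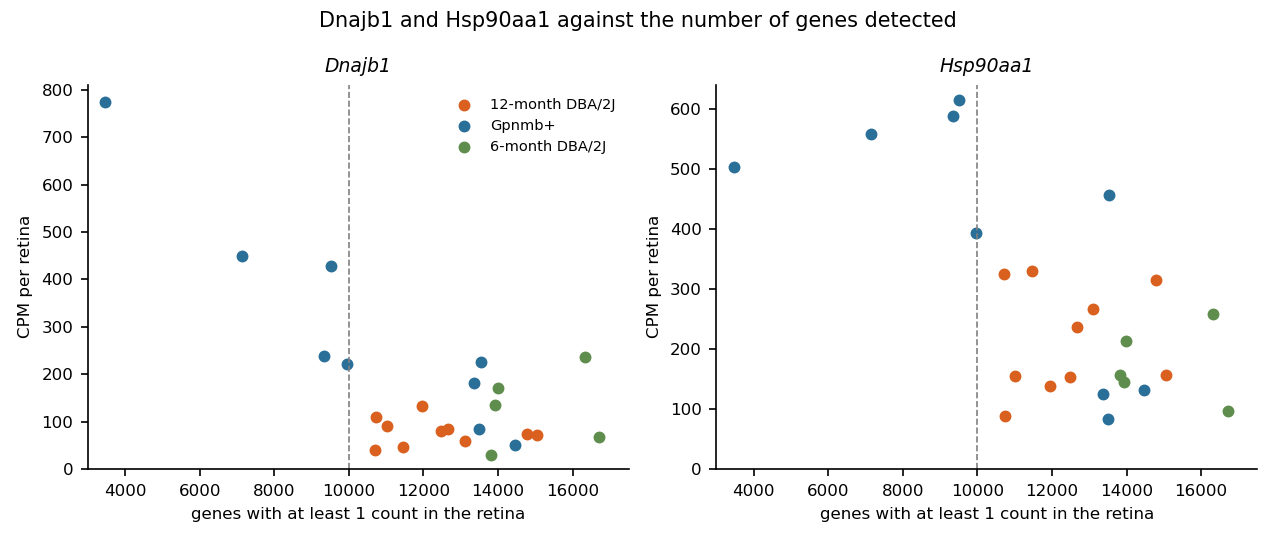
CPM of Dnajb1 (left) and Hsp90aa1 (right) against the number of genes with at least 1 count, with 1 point per retina coloured by group and a dashed line at 10000 genes. All 5 retinas left of the line are Gpnmb+, with Dnajb1 at 221 to 774 CPM and Hsp90aa1 at 393 to 614 CPM.

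The HSP90 genes encode the cytosolic chaperone of kinases and steroid receptors, Hsp90aa1 its stress-inducible form and Hsp90ab1 its constitutive form. Hsp90aa1 stood at 290, 255, 135, 191 and 229 TMM-scaled CPM in 12-month DBA/2J animals 1 to 5, and at 802, 515, 438, 121 and 103 CPM in Gpnmb+ animals 1 to 5. In 6-month DBA/2J it was 236, 203, 137, 156 and 88.2 CPM. As for Dnajb1, Gpnmb+ animals 1 to 3 were above all others and animals 4 and 5 were not. The log2 fold change of Hsp90aa1 was -1.27 ± 0.46 for 6-month DBA/2J against Gpnmb+ (p = 0.013, adjusted p = 1.00 by edgeR), -0.85 ± 0.46 for 12-month DBA/2J against Gpnmb+ and 0.43 ± 0.45 for 12-month against 6-month DBA/2J. Per retina it was 393 to 614 CPM in the 5 Gpnmb+ retinas with fewer than 10000 genes, which come from animals 1 to 3. In 12-month DBA/2J it was 88.3 to 329 CPM. How many of all genes separate these retinas in the same way was not counted. In the other 4 Gpnmb+ retinas Hsp90aa1 was at 82.8 to 456 CPM. In Gpnmb+ animal 3 it was 393 CPM in the right eye, under the 10000-gene line, and 456 in the left. Without Gpnmb+ animal 1 the value for 6-month DBA/2J against Gpnmb+ was -0.84 ± 0.44 (p = 0.0713, adjusted p = 0.998 by edgeR). Without the 5 retinas the log2 fold change was -0.45 ± 0.43 for 6-month DBA/2J against Gpnmb+ (p = 0.315) and -0.02 ± 0.44 for 12-month DBA/2J against Gpnmb+ (p = 0.962 by edgeR).

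Hsp90ab1 was the only chaperone with an unadjusted p under 0.05 between 12-month and 6-month DBA/2J. Its values were 428, 562, 450, 558 and 770 TMM-scaled CPM in 12-month DBA/2J and 459, 451, 365, 280 and 340 CPM in 6-month DBA/2J. At 12 months 3 of 5 animals were above every 6-month animal. The means were 554 ± 135 (SD, n = 5) and 379 ± 76.1 CPM (SD, n = 5). The log2 fold change of Hsp90ab1 was 0.55 ± 0.25 (p = 0.0437, adjusted p = 1.00 by edgeR). The direction was the same in all 22 alternative settings, but the unadjusted p was under 0.05 in only 10 of them. Leaving out 12-month animal 2, 4 or 5, or 6-month animal 3, 4 or 5, ended it, with values of 0.41 to 0.54. Gpnmb+ animals, at 722, 683, 610, 362 and 326 CPM, overlapped both DBA/2J groups. Only 12-month animal 5 (770 CPM) lay above all of them and only 6-month animal 4 (280 CPM) below. The log2 fold change of Hsp90ab1 was 0.03 ± 0.25 for 12-month DBA/2J against Gpnmb+.

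Hspa1a and Hspa1b, the inducible HSP70 genes on chromosome 17, share so much sequence that their counts cannot be told apart with confidence. Of the 50-base stretches in their annotated transcripts, 60.4% of those of Hspa1a and 62.3% of those of Hspa1b also occur in another gene, mainly in each other. The share of the pair's counts that was assigned to Hspa1a ran from 24.8% to 87.8% in 12-month DBA/2J retinas (median 73.8%), from 36.0% to 100% in Gpnmb+ and from 48.6% to 100% in 6-month DBA/2J. Hspa1b was at 0 in 4 of 9 Gpnmb+ retinas and 1 of 5 6-month retinas, and in none of the 10 retinas of 12-month DBA/2J. A count of 0 in those libraries allows up to 0.202 to 3.07 CPM, for counting error only. The pair was therefore also summed to 1 value.

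**Figure D4:**
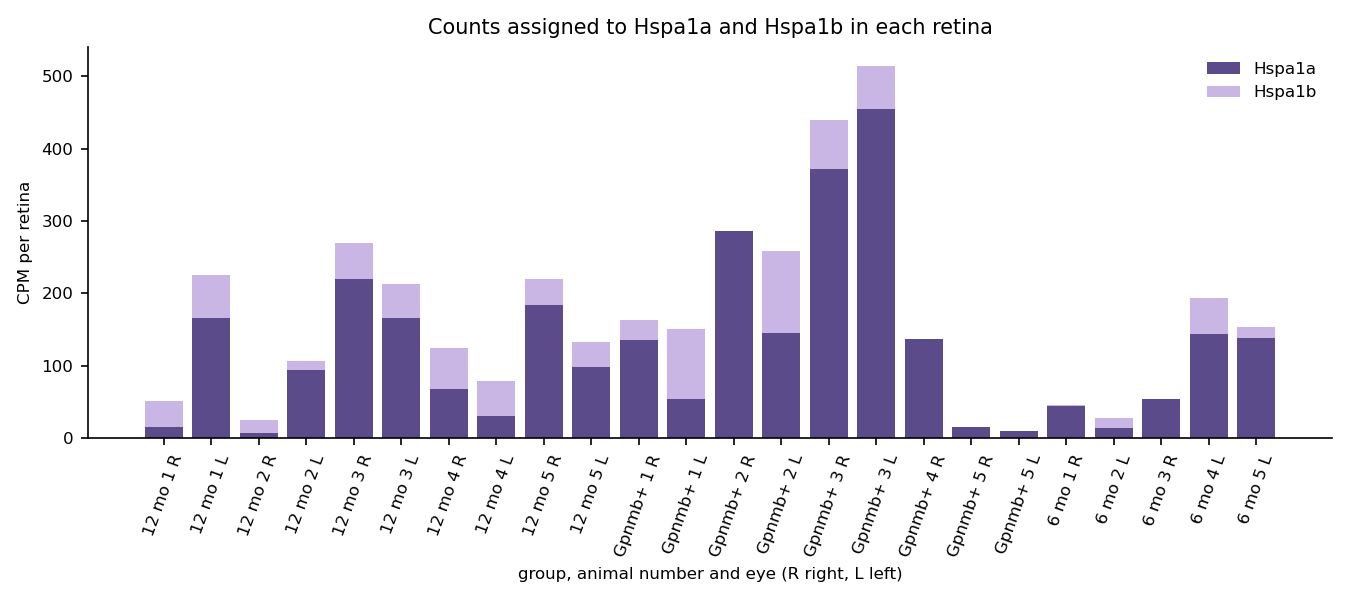
CPM assigned to Hspa1a (dark) and Hspa1b (light), stacked, in each of the 24 retinas, labelled by group, animal number and eye. The sum runs from 8.82 CPM in the left eye of Gpnmb+ animal 5 to 515 CPM in the left eye of Gpnmb+ animal 3, and the light part is missing in 4 Gpnmb+ retinas and in the right eye of 6-month animal 3.

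The summed pair varied widely between animals of 1 group. It stood at 176, 58.2, 236, 122 and 161 TMM-scaled CPM in 12-month DBA/2J animals 1 to 5, and at 209, 249, 494, 132 and 10.9 CPM in Gpnmb+ animals 1 to 5. In 6-month DBA/2J it was 41.1, 26.1, 50.6, 193 and 139 CPM. Gpnmb+ held both the highest and the lowest animal of the 15, so the groups overlapped throughout. The log2 fold change of the pair Hspa1a+Hspa1b was -0.54 ± 0.68 for 12-month DBA/2J against Gpnmb+ (p = 0.438, adjusted p = 0.999 by edgeR) and 0.75 ± 0.68 between the ages of DBA/2J (p = 0.286). It was -1.29 ± 0.69 for 6-month DBA/2J against Gpnmb+ (p = 0.0779, adjusted p = 1.00 by edgeR), and -1.59 ± 0.56 without Gpnmb+ animal 5 (p = 0.0108, adjusted p = 0.551 by edgeR). Without 6-month animal 4 it was -1.76 ± 0.73 (p = 0.028, adjusted p = 1.00 by edgeR). Without Gpnmb+ animal 3 the value for 12-month DBA/2J against Gpnmb+ was 0.01 ± 0.69. Taken as separate rows, Hspa1a had log2 fold changes of -0.67 ± 0.70, 0.54 ± 0.70 and -1.21 ± 0.71 in the same order of comparisons, and Hspa1b of -0.14 ± 1.5, 1.45 ± 1.53 and -1.60 ± 1.54.

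Hspa8, which folds new proteins and uncoats clathrin vesicles, was steadier. Its means were 1193 ± 248 (SD, n = 5) TMM-scaled CPM in 12-month DBA/2J, 1381 ± 637 (SD, n = 5) in Gpnmb+ and 1030 ± 287 (SD, n = 5) in 6-month DBA/2J. Against Gpnmb+ the log2 fold change of Hspa8 was -0.21 ± 0.27 at 12 months and -0.42 ± 0.28 at 6 months, and between the ages of DBA/2J it was 0.21 ± 0.27. Of its 50-base stretches, 38.6% also occur in other genes, and the row that shares most of them, Gm15459, held 9.80% as many counts as Hspa8. Hsph1, the exchange factor of HSP70, was uneven between retinas. In 12-month DBA/2J animal 5 it had 8 counts in the right eye and 987 in the left. Hsph1 was at 0 in 5 retinas. Its level per retina ran from 0 to 62.4 CPM in 12-month DBA/2J, from 0 to 31.3 CPM in Gpnmb+ and from 0.285 to 26.2 CPM at 6 months. Its log2 fold changes of 0.63 ± 1.3 for 12-month DBA/2J against Gpnmb+, 0.06 ± 1.29 between the ages and 0.57 ± 1.29 for the 6-month animals against Gpnmb+ were smaller than their standard errors. No difference was detectable with this spread.

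The genes of the mitochondrial chaperonin, Hspd1 and Hspe1, differed in how far they varied between animals. Hspd1, the HSP60 that forms the ring, was 88.5 ± 25.5 (SD, n = 5) TMM-scaled CPM in 12-month DBA/2J, 77.0 ± 21.5 (SD, n = 5) in Gpnmb+ and 72.1 ± 23.4 (SD, n = 5) in 6-month DBA/2J. Hspe1, the HSP10 that caps it, was 46.4 ± 26.5 (SD, n = 5), 27.5 ± 33.2 (SD, n = 5) and 31.9 ± 8.30 (SD, n = 5). Their deviations from the group means over the 15 animals had a Pearson r of -0.11, given as a description of animals that also share depth and library. The log2 fold changes for 12-month DBA/2J against Gpnmb+ were 0.20 ± 0.33 for Hspd1 and 0.75 ± 0.91 for Hspe1. Without the 5 Gpnmb+ retinas with fewer than 10000 genes they were 0.67 ± 0.32 (p = 0.0531) for Hspd1 and 1.33 ± 0.58 (p = 0.037, adjusted p = 0.662 by edgeR) for Hspe1. Hspe1 was at 0 in 1 retina of 12-month DBA/2J and 2 of Gpnmb+.

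Hspa5, the target of the unfolded protein response, had similar means in the groups, at 704 ± 224 (SD, n = 5) TMM-scaled CPM in 12-month DBA/2J, 781 ± 303 (SD, n = 5) in Gpnmb+ and 817 ± 232 (SD, n = 5) in 6-month DBA/2J. Its log2 fold changes were -0.15 ± 0.29 for 12-month DBA/2J against Gpnmb+, -0.21 ± 0.29 between the ages of DBA/2J and 0.07 ± 0.29 for the 6-month animals against Gpnmb+. None of its 50-base stretches occur in another gene, so its counts do not depend on how shared reads were divided.

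**Figure D5:**
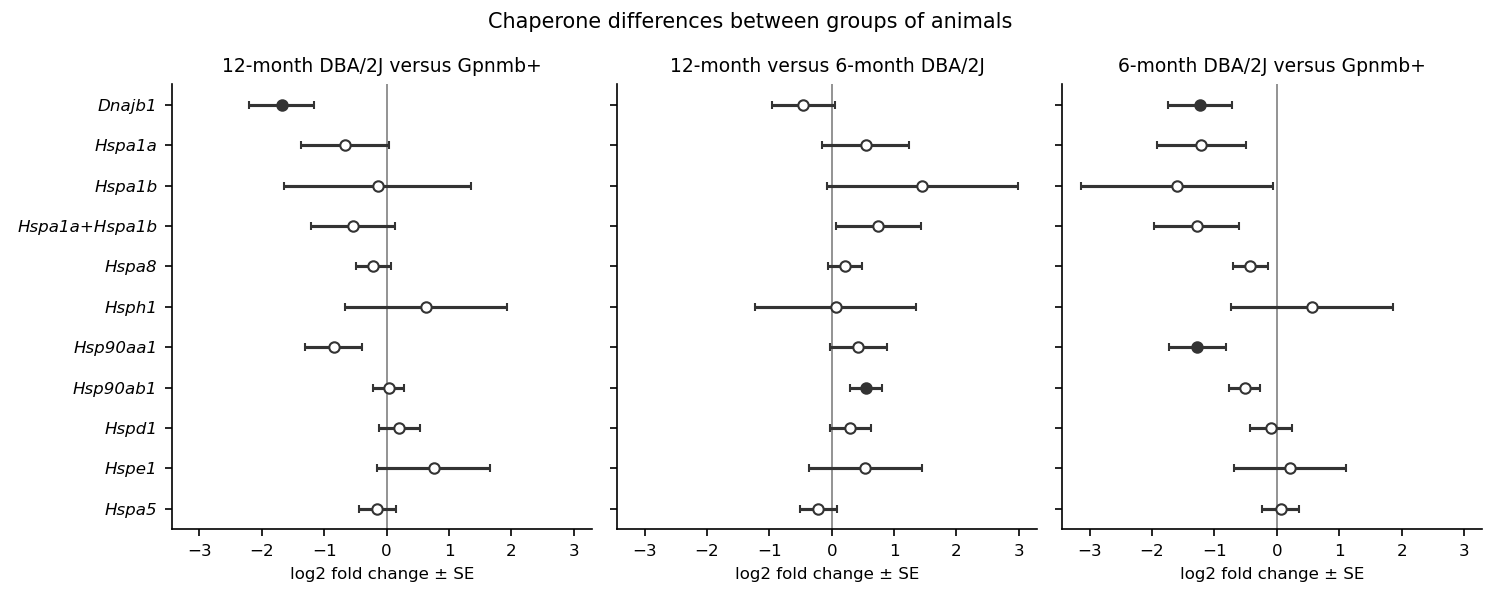
Log2 fold change ± SE (edgeR, 5 animals per group) of the 10 chaperones and of the summed pair Hspa1a+Hspa1b in the 3 comparisons of groups. Filled points have an unadjusted p under 0.05 (Dnajb1, Hsp90ab1, and Hsp90aa1 with Dnajb1, from left to right), and no gene passed an adjusted p of 0.05.

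Within 12-month DBA/2J the retinas were next compared by grade. A slope over the grades (mild 0, moderate 1, severe 2), fitted to 7 sums of 5 animals, gave 0 chaperones with an unadjusted p under 0.05 in either direction, where 0.616% of 12019 genes were lower and 0.815% were higher, and 0 passed the adjusted threshold by edgeR or DESeq2. The smallest p-values were those of Hspa5 and Hspe1. Hspa5 was 274, 381 and 595 CPM per retina in the mild retinas, 277 to 853 in the moderate ones (median 762) and 746, 906 and 939 in the severe ones. All 3 severe retinas were above all 3 mild ones and the moderate retinas spanned both. Of 13212 genes with a mean count of at least 10 in these retinas, 5.03% were separated in that direction and 3.59% in the other, beside 2 (Hspa5 and Hspa8) and 1 (Hspe1) of the 10 chaperones. The slope of Hspa5 was 0.44 ± 0.27 log2 units per grade (p = 0.125, adjusted p = 1.00 by edgeR). With retinas fitted under a random animal effect, the slope of Hspa5 was 0.46 ± 0.18 (p = 0.0185, adjusted p = 0.581 by limma). It was then the 1 chaperone under an unadjusted p of 0.05, beside 507 of 11227 genes higher and 339 lower. Hspe1 ran the other way, at 34.3, 73.8 and 79.3 CPM in mild, 27.7 to 87.3 in moderate and 0, 23.3 and 23.8 in severe retinas. The slope of Hspe1 was -0.75 ± 0.52 log2 units per grade (p = 0.171, adjusted p = 1.00 by edgeR). The severe retinas come from only 2 animals. In animal 1, which has a severe left and a moderate right eye, Hspa5 was 746 and 277 CPM and Hspe1 23.8 and 65.6 CPM. In animal 5, with a moderate left and a mild right eye, Hspa5 was 823 and 595 CPM and Hspe1 87.3 and 34.3 CPM. Hspa5 was thus higher in the eye of higher grade in both animals, and Hspe1 in 1 of them.

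The summed pair Hspa1a+Hspa1b had its lowest values in moderate retinas and its highest in severe ones. It was 25.1 to 132 CPM in the 4 moderate retinas, 78.5, 124 and 220 in the mild ones and 212, 225 and 269 in the severe ones, so that the severe retinas were all above the moderate ones. That separation was seen in 3.47% of the 13212 genes, and the opposite one in 3.09%. Hspa8 was 1209, 1388 and 1481 CPM in severe and 702, 827 and 1038 in mild retinas, with the moderate ones from 511 to 1784. Dnajb1 showed no such order, at 39.8, 81.4 and 132 CPM in mild, 47.4 to 91.4 in moderate and 71.3, 83.7 and 109 in severe retinas.

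Retinas of each grade were also compared with Gpnmb+, using 17 sums by animal and grade and the same Gpnmb+ animals in all 3 comparisons. Mild retinas had 0 chaperones at an unadjusted p under 0.05, beside 2.75% of 15959 genes lower and 2.67% higher. Moderate retinas had 1 lower, Dnajb1, beside 3.71% lower and 4.75% higher, and severe retinas had 1 lower, again Dnajb1, beside 1.2% and 3.08%. The log2 fold changes of Dnajb1 were -1.46 ± 0.74 in mild, -2.01 ± 0.64 in moderate (p = 0.0054, adjusted p = 0.579 by edgeR) and -1.62 ± 0.74 in severe retinas (p = 0.0419, adjusted p = 0.982 by edgeR). Without the 5 Gpnmb+ retinas with fewer than 10000 genes they were -0.63 ± 0.67, -1.18 ± 0.60 and -0.81 ± 0.67, none with an unadjusted p under 0.05. DESeq2 gave moderate retinas an adjusted p of 0.0499, where the range over 15 alternatives was 0.0499 to 0.961. Next by p with all retinas were Hsp90aa1 in mild retinas (-1.21 ± 0.64), Hspd1 in moderate retinas (0.93 ± 0.46) and Hsp90aa1 in severe retinas (-0.98 ± 0.64). The difference between grades in these values was tested only by the slope.

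Both eyes were sequenced in 9 animals, which shows how far the chaperones vary within 1 mouse. The higher eye exceeded the lower by a median ratio of 1.3 for Hspa8 (1.01 to 3.83), 1.38 for Hspa5 (1.04 to 2.69), 1.59 for Hsp90aa1 (1.04 to 2.35), 1.60 for Hsp90ab1 (1.2 to 3.16) and 1.67 for Dnajb1 (1.02 to 3.32). For Hspa1a it was 1.98, with a highest ratio of 14.9 between the left (93.2 CPM) and right (6.23 CPM) retinas of 12-month DBA/2J animal 2, both graded moderate. In 12-month DBA/2J animal 1 the severe left retina had 166 CPM of Hspa1a and the moderate right retina 15.7 CPM. Summing the pair brought the highest ratio down to 4.44. Among pairs of eyes without a 0, the median ratio was 1.16 for Hspa1b (1.07 to 3.44) and 1.43 for Hspe1 (1.03 to 8.53). It was 2.11 for Hspd1 (1.16 to 5.07) and widest for Hsph1, at 14.1 (2.89 to 97.4). A 0 left out 2 pairs each for Hspa1b and Hspe1, 1 for Hspd1 and 4 for Hsph1. The right eye was the higher one in 6 of 9 animals for Hspa1a and Dnajb1 and in 3 of 9 for Hsp90aa1.

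The rest of the chaperone network was described by lists of other genes. For 12-month DBA/2J against Gpnmb+, 0 of 8 other HSP70, HSP110 and HSP90 genes tested had an unadjusted p under 0.05, with a median log2 fold change of -0.11. Of 23 other J-domain genes, 2 were lower and 0 higher (median 0.15): Dnajb9, a J-protein of the endoplasmic reticulum, at -1.06 ± 0.44, and Dnajb6, which holds back aggregation, at -0.81 ± 0.38. Of 19 co-chaperones, 0 were lower and 1 was higher (median 0.10), Bag4, which had counts in only 3 of 10 retinas of 12-month DBA/2J and 1 of 9 of Gpnmb+. Chaperonin CCT and prefoldin subunits (14 genes, median 0.15), small heat shock proteins (5 of 10 tested, median 0.02) and mitochondrial protein quality control genes (12 genes, median -0.11) had 0 in either direction. None of these genes passed the adjusted threshold by edgeR.

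Genes of 2 further stress pathways were counted in the same way. Of 19 genes of the endoplasmic reticulum chaperones and unfolded protein response, 2 were lower at that threshold and 0 were higher, with a median of 0.16. They were Ppp1r15a, which restores translation after stress, at -1.35 ± 0.29 (p = 0.000217, adjusted p = 0.313 by edgeR), and Atf4, the transcription factor of that pathway, at -0.87 ± 0.33. Of 21 immediate early genes, 17 were lower and 0 higher, with a median of -1.27, Fos at -0.93 ± 0.33 and Jun at -1.27 ± 0.32. Over all genes tested 2.45% were lower and 2.76% higher. The gene lists were chosen with earlier results of these data known, so these counts are not independent of that choice. Hsf1, the transcription factor named above, was 31.9 ± 21.1 (SD, n = 5) TMM-scaled CPM in 12-month DBA/2J, 43.6 ± 18.3 (SD, n = 5) in 6-month DBA/2J and 46.5 ± 29.4 CPM (SD, n = 5) in Gpnmb+. Its log2 fold change was -0.54 ± 0.64 for 12-month DBA/2J against Gpnmb+, and that of Hsf2, a related factor, -1.25 ± 1.17.

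For 12-month against 6-month DBA/2J the same lists gave 1 J-domain gene lower of 23, Dnajb9 at -1.20 ± 0.44, and 2 of 14 chaperonin and prefoldin subunits higher, Cct7 at 0.70 ± 0.30 and Pfdn5 at 0.93 ± 0.40. Ppp1r15a was at -1.48 ± 0.29 (p = 8.81e-05, adjusted p = 0.253 by edgeR), the 1 of 19 endoplasmic reticulum genes lower at an unadjusted p under 0.05. Of 21 immediate early genes, 6 were lower, with a median of -0.61, while the median of the 10 chaperones was 0.36. The other HSP70, HSP110 and HSP90 genes, small heat shock proteins, co-chaperones, heat shock factors and mitochondrial genes had 0 in either direction. Between the ages, 1.55% of all genes tested were lower and 2.1% higher. For 6-month DBA/2J set against Gpnmb+, 1 of 23 J-domain genes was lower, Dnaja1, the constitutive partner of Hspa8, at -0.73 ± 0.34, and 4 of 21 immediate early genes were lower, with a median of -0.75. Of 19 co-chaperones 2 were higher, Bag4 and Fkbp4, a partner of HSP90, at 0.94 ± 0.43. Lower were 1 of 14 chaperonin and prefoldin subunits, Cct7 at -0.65 ± 0.30, 1 of 19 endoplasmic reticulum genes, Atf4 at -0.73 ± 0.33, and 1 of 12 mitochondrial genes, the protease gene Yme1l1 at -1.40 ± 0.57. The remaining lists had 0 in either direction. Among all genes tested in this last comparison, 1.57% were lower and 2.2% higher.

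How the chaperones varied together was described over the 15 animals, with each gene taken as log2 CPM minus its group mean. Hspa8 and Hspa5 had a Pearson r of 0.83, Hsp90aa1 and Hsp90ab1 of 0.79, Hsp90ab1 and Hspd1 of 0.77, and Hsp90ab1 and Dnajb1 of 0.76. Hspa1a had an r of 0.37 or less with every chaperone other than Hspa1b (0.52). For Hspa1b the r was 0.66 with Hsp90aa1, 0.49 with Hsp90ab1 and 0.42 with Hspa8, and lowest with Hsph1, at -0.27. Hsph1 had an r of -0.50 with Dnajb1 and 0.57 with Hspe1. These are descriptions of 15 animals whose libraries also differ in depth and in the number of genes detected. Among the 7035 genes whose average log2 CPM reached 4, those with the highest r to the summed pair Hspa1a+Hspa1b were Chchd5 (0.83), Nipsnap1 (0.78), Sh3kbp1 (0.76), Agps (0.76) and Snapc2 (0.75). The first chaperone in that order was Hspa8, at rank 254 with an r of 0.41, and Hsf1 had an r of -0.15.

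Other members also share sequence with further rows of the table. Of 50-base stretches, 47.5% of those of Hsp90aa1 occur in other genes, 39.7% of those of Hspd1, 18.4% of Hspe1, 3.44% of Hsp90ab1 and 0.38% of Dnajb1. The row sharing most with Hsp90aa1, Gm12346, held 7.75% as many counts as Hsp90aa1 over the 24 retinas, and Hspd1-ps3 held 9.18% as many as Hspd1. The values of Hspa8, Hsp90aa1 and Hspd1 are therefore uncertain by the share of reads that went to such copies, and those of Dnajb1, Hsp90ab1, Hspa5 and Hsph1 much less so.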

How the data were processed

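Microglia of 24 retinas of 15 animals were measured, 1 library per retina. The deposited tables give expected counts (estimated reads per gene, not whole) and TPM (scaled to transcript length by the authors), per the file headers. Listed in the submitters' processing notes, with no role stated, are mm10, Salmon (1.4.0), R (4.0.3) and DESeq2 (1.30.1). No aligner or filter is named in the sources used here. A deposited table with 24 columns of FPKM was not used.

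Expected counts were rounded in each retina, and both eyes of an animal were added, or only those of equal grade for the grades. The 3 groups were fitted together with edgeR 4.0.16 in R 4.3.3 (quasi-likelihood F test, TMM scaling, filterByExpr with a minimum count of 10 and total of 15, two-sided, Benjamini-Hochberg adjustment over all genes, threshold 0.05). SE is the absolute log2 fold change divided by the square root of F. In sums by grade, DBA/2J animals 1 and 5 enter with 2 sums each, taken as independent. CPM per retina are counts over the library total, and TMM-scaled CPM use the kept genes. In 91 within-group pairs of retinas, chi-square per degree of freedom was at least 88.5, far above sampling noise, and all were kept as separate libraries.

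The 10 members and the 18 gene lists (235 entries, 234 in the files) were chosen with earlier results of these data known. Named were the members, Hsf1, Hsf2, Fos, Jun, the 2 genes of smallest p per other chaperone list where they passed an unadjusted p of 0.05, and 5 genes most like the summed pair. Gpnmb was given as a check of the labels, and rows that share sequence with a member were named for that reason. Alternatives were DESeq2 1.42.0, RLE scaling, other filters, each retina as a replicate, a random animal effect on retinas (limma 3.58.1, voomLmFit), compared groups alone, leaving out retinas of low depth (under 20% of the median total) or with fewer than 10000 genes, 1 retina per animal, the animal number as a block, the pair summed, and leaving out each animal. Those for the summed pair were chosen after seeing the data. On simulated counts of 12977 genes for 12-month DBA/2J against Gpnmb+, 5.97%, 34.3% and 56.1% of genes changed 2-, 4- and 8-fold passed the adjusted threshold. Genes were matched by symbol, with 47224 of 47729 IDs matched, and coordinates are GRCm38. Intervals that a count of 0 allows are 3 counts of the library total.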

Additional observations from a re-analysis of the deposited data

Results flagged for a closer look

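In 5 of the 33 groups of 5 animals tested for a value apart from the rest (10 chaperones and the summed pair in 3 groups), 1 animal stood apart by Dixon's test at the 95% level, where chance gives about 1 in 20. Among 6-month DBA/2J animals, animal 1 had the highest Hspa8, at 1523 TMM-scaled CPM against 824 to 996 in the others, and the highest Hspd1, at 113.4 CPM against 58.7 to 68.1. Animal 4 of the same group had the highest Hspa1b, at 50.1 CPM against 0 to 13.9. Hspe1 was highest in Gpnmb+ animal 1, at 84.1 CPM against 0 to 22.7, and both retinas of that animal had fewer than 10000 genes. Dnajb1 was highest among 12-month DBA/2J in animal 4, at 120.5 CPM against 72.8 to 85.7.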

How the results depend on the processing

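Of the counts recomputed, 140 of 171 stayed within 1.5 times when 1 animal was left out and 137 of 189 under other settings. In the same order, 361 of 384 and 394 of 417 values of single chaperones kept their direction and side of the adjusted threshold. Since no chaperone passed that threshold in the main fits, keeping the side was nearly fixed beforehand. Values that crossed the unadjusted threshold were not counted as changed. In 12-month DBA/2J against Gpnmb+, Dnajb1 stayed between -1.94 and -0.82. Hsph1 and Hspa1b were each at 0 in 5 retinas, and Hspe1 in 3. A count of 0 there allows up to 0.202 to 3.07 CPM, depending on the library total. The cause of the changes below was not tested.

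Genes with an adjusted p under 0.05 (0 by edgeR in all 7 comparisons) numbered 108, 60 and 57 with DESeq2 in 12-month DBA/2J against Gpnmb+, between the ages of DBA/2J and in 6-month DBA/2J against Gpnmb+, 26 in the slope over grades, and 596, 296 and 280 in mild, moderate and severe retinas against Gpnmb+. The only chaperone among the adjusted calls of any setting was Dnajb1 in moderate retinas with DESeq2, at -2.09 (adjusted p = 0.0499). A random animal effect on retinas gave 8, 5, 40, 2, 3, 13 and 32 genes in the same order, and moved the median log2 fold change of all genes to 0.59, -0.43 and 1.09 in the 3 comparisons of groups. No filter gave 2 genes between the ages, 6 in the slope, and 31, 33 and 10 in the grades. Leaving out 1 animal gave 0 to 1 genes in 12-month DBA/2J against Gpnmb+, 0 to 2 in mild and 0 to 4 in moderate retinas.

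The number of chaperones lower at an unadjusted p under 0.05 in 12-month DBA/2J against Gpnmb+ was 2 with DESeq2 or with each retina as a replicate, 0 with the random effect and 0 without the retinas under 10000 genes, and 1 to 2 when 1 animal was left out (2 without Gpnmb+ animal 4 or 5). The number higher was 1 with the random effect and 1 without those retinas. Over all genes, DESeq2 had 577 of 12977 lower and each retina as a replicate 280 of 13185. Without Gpnmb+ animal 4 or 5, 340 of 13625 and 358 of 13398 genes were lower. The random effect had 1269 of 13185 genes higher, and the fit without those retinas under 10000 genes 681 of 14275. Between the ages, 0 were higher with DESeq2, RLE scaling, each retina as a replicate, 1 retina per animal, or without retinas under 20% of the median total, and 0 to 1 when 1 animal was left out. In 6-month DBA/2J against Gpnmb+, 0 were lower with the random effect or without retinas under 10000 genes, 1 with the compared groups alone or 1 retina per animal, and 0 to 5 when 1 animal was left out (0 without Gpnmb+ animal 1, 5 without Gpnmb+ animal 5, 4 without 6-month animal 1, and 1 without Gpnmb+ animal 2 or 6-month animal 4 or 5). Of all genes in that comparison, 260 of 13398 were lower without Gpnmb+ animal 5 and 249 of 13341 without 6-month animal 1. With the random effect 1 was higher in the slope over grades (Hspa5) and 1 each in mild, moderate and severe retinas. With it 0 were lower in moderate and severe retinas. That fit had 507 of 11227 genes higher in the slope, and 840, 1129 and 1173 of 14685 higher in mild, moderate and severe retinas. In mild retinas 1 was lower with DESeq2 and 2 with no filter, and 1 was higher without retinas under 10000 genes. When 1 animal was left out, 0 to 2 were lower. Of all genes, DESeq2 had 1362 of 15959 lower and no filter 703 of 26717 lower. The fit without retinas under 10000 genes had 352 of 15731 higher. In moderate retinas 2 were lower with DESeq2 or no filter and 0 without retinas under 10000 genes. There 1 was higher with DESeq2 and 3 without those retinas (Hspd1, Hspe1 and Hsp90ab1). Leaving out 1 animal gave 1 to 2 lower and 0 to 1 higher. Of all genes, DESeq2 had 948 of 15959 lower and 592 higher, and no filter 810 of 26717 lower. The fit without retinas under 10000 genes had 696 of 15731 higher. In severe retinas 0 were lower without retinas under 10000 genes, and 0 to 2 when 1 animal was left out. The 2 were without Gpnmb+ animal 5, beside 191 of 15768 genes lower.

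Samples with the same number in different groups did not deviate together (r of -0.046 to 0.088 over 15 pairs, against -0.072 to 0.065 over 60 pairs with other numbers), so the numbers do not pair the animals. With the animal number as a replicate block, 4 genes were called in moderate and 1 in severe retinas. In severe retinas 2 chaperones were lower at an unadjusted p under 0.05, beside 97 of 15959 genes. Dnajb1 was then at -1.30 ± 0.48 in 12-month DBA/2J against Gpnmb+ (p = 0.0167 by edgeR).

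The following values of single chaperones changed sign. In 12-month DBA/2J against Gpnmb+ the random effect gave 0.26 for Hspa1a, 3.98 for Hspa1b, 0.33 for Hspa8 and 0.21 for Hspa5. The median of all genes in that fit was 0.59, and it was -0.43 between the ages and 1.09 in 6-month DBA/2J against Gpnmb+. Without retinas under 10000 genes Hspa1b was at 1.11, Hspa8 at 0.13 and Hspa5 at 0.0047. With 1 retina per animal Hspa5 was at 0.052 and Hsp90ab1 at -0.15, and Hsp90ab1 was at -0.0523 with DESeq2 and -0.0525 with RLE scaling. Leaving out 1 animal gave -0.97 to 0.0125 for Hspa1a, -0.46 to 0.19 for Hspa1b, -0.85 to 0.0086 for their sum Hspa1a+Hspa1b, -0.37 to 0.0505 for Hspa8, -0.28 to 0.0203 for Hspa5, -0.10 to 0.16 for Hsp90ab1 and -0.28 to 1.24 for Hsph1. Between the ages, Hspe1 was at -0.57 and Hsph1 at -1.68 with the random effect, and Hsph1 at -0.17 with each retina as a replicate and at -0.84 to 0.61 when 1 animal was left out. In 6-month DBA/2J against Gpnmb+ the random effect gave 0.33 for Hspa1b and 0.51 for Hspd1. There Hspa5 was at -0.0083 with DESeq2 or RLE scaling, and with 1 retina per animal Hspe1 was at -0.42 and Hspd1 at 0.12. Hspd1 was at 0.0635 with each retina as a replicate and at 0.37 without retinas under 10000 genes. Leaving out 1 animal gave -0.078 to 0.24 for Hspa5, -0.10 to 1.25 for Hspe1 and -0.31 to 0.0267 for Hspd1.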
